A study of Mus musculus with 9 samples.

Results

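Endoplasmic reticulum (ER)-associated degradation (ERAD) takes misfolded proteins out of the ER and hands them to the proteasome. The genes described here encode 9 proteins of its retrotranslocation step, chosen by name: Syvn1, Sel1l, Herpud1, Derl1, Derl2, Derl3, Selenos, Ube2j1 and Vcp. All 9 were found, by gene symbol, among the 54532 genes of the deposited expression table. The rule is a list of names and uses no measured level.

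The cells were primary hepatocytes, isolated by liver perfusion from mice on a C57BL/6 background and studied in 9 RNA sequencing libraries. The group CKO Tu came from COX-2 fl/fl mice with Alb-Cre, in which the albumin promoter drives Cre recombinase in hepatocytes, and received tunicamycin. The group WT Tu came from COX-2 fl/fl littermates without Cre and received tunicamycin, and the group WT DMSO came from the same kind of littermates and received the vehicle. The WT groups therefore carry the floxed alleles too, and each group has 3 libraries. Cells spent 2 hours in 1% serum and then 24 hours with DMSO or with tunicamycin at 6 μmol/L. Tunicamycin blocks N-glycosylation, so that unfolded glycoproteins collect in the ER. COX-2 knockout cells with DMSO are not analysed here, so tunicamycin is compared with vehicle in wild-type cells only. The labels do not tie the replicates to separate animals, so the spread behind each p-value is the one among these libraries and may be technical. No age is given beyond the genotypes being age-matched.

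In the ERAD machinery, HRD1, the membrane ubiquitin ligase encoded by Syvn1, is held and supplied with substrates by the adaptor SEL1L. HERP, encoded by Herpud1, and the derlins, which are inactive relatives of rhomboid proteases, join them in the ER membrane. The E2 enzyme UBE2J1 supplies ubiquitin, selenoprotein S docks the ATPase VCP (p97) at the membrane, and VCP pulls the tagged protein into the cytosol. In the unfolded protein response many of these genes are known targets of the transcription factors XBP1 and ATF6. Hepatocytes secrete most plasma proteins and so carry a heavy ER folding load.

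The libraries held between 14897358 and 16001484 fragments, and values are FPKM, fragments per kilobase of gene scaled by the authors to a common library size. A gene was tested where 3 or more libraries reached an FPKM of 1, and all 10 hepatocyte markers did. So did 4 of 8 endothelial, 2 of 8 stellate cell and 2 of 6 cholangiocyte markers. Only 1 of 8 Kupffer cell markers and 1 of 8 lymphocyte and neutrophil markers did, so the sums below can rest on very few genes. The 8 endothelial markers summed to 3.44 to 4.01 FPKM in CKO Tu, 4.71 to 5.85 FPKM in WT Tu and 11.2 to 11.7 FPKM in WT DMSO. In WT Tu against WT DMSO, summed markers also stood apart without overlap for Kupffer cells (96.8 to 115 against 74.1 to 91.1 FPKM, with Vsig4 at 0) and for lymphocytes and neutrophils (4.70 to 6.35 against 1.25 to 1.62 FPKM). In CKO Tu against WT Tu, they stood apart for cholangiocytes (34.3 to 38.3 against 22.8 to 24.3 FPKM), stellate cells (6.41 to 7.25 against 5.01 to 5.87 FPKM), lymphocytes and neutrophils (2.49 to 4.27 against 4.70 to 6.35 FPKM) and hepatocytes (13813 to 14689 against 15808 to 17202 FPKM). Hepatocyte sums in WT DMSO were 15972 to 17678 FPKM, overlapping WT Tu. The part of other cells in the results below was not tested. In bulk RNA, fewer cells of a type and less RNA per cell cannot be told apart. Ptgs2, which encodes COX-2, had 1, 1 and 2 fragments in CKO Tu, 8, 5 and 5 in WT Tu, and 0, 13 and 8 in WT DMSO. The labels describe male mice, but Xist, the female-specific X-inactivation transcript, had 0, 3 and 0 fragments in CKO Tu against 20659 to 33657 in the 6 WT libraries. Fragments of 4 Y-chromosome genes (Uty, Kdm5d, Eif2s3y and Ddx3y) summed to 3486 to 3633 in CKO Tu libraries and 0 in each WT library. Genotype and sex-linked transcription therefore cannot be told apart in any comparison with CKO Tu. WT Tu replicate 1 stood apart on the second principal component, at -36.6 against -19.6 and -19.6 for the other WT Tu libraries.

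Promoters of 8 of the 9 genes were present in the RefSeq table (build GRCm38.p6), each as 300 bases from 250 before to 50 after the start site. They were searched on both strands for motifs of the unfolded protein response. ERSE, the ER stress response element, was taken as CCAAT and CCACG with 9 bases between them. ERSE-II was taken as ATTGG and CCACG with 1 base between them. The core of UPRE, an XBP1 element, was taken as TGACGTGG, and the C/EBP-ATF site, bound by ATF4 with a partner, as TGATGNAA. The UPRE core holds CCACG read on the other strand, so it can share those bases with an ERSE.

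The stretches below run from 200 bases before the start site to the base before it, 5′ to 3′ on the gene's own strand. They are shown because they hold all exact matches found and because these genes span the weakest to the strongest rise with tunicamycin. Capitals mark exact matches to a motif, except in Sel1l, where no exact match exists and capitals mark an ERSE with 1 mismatch in its CCACG part. Derl2, which is not shown, also held an ERSE with 1 such mismatch, at -186 to -168. Selenos, which is not shown either, held no match, exact or with 1 such mismatch.

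Syvn1, chr19:6046376-6046575, plus strand: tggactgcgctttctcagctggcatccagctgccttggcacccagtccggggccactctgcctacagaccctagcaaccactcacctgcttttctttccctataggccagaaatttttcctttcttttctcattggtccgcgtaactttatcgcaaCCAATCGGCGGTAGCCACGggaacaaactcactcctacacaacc
Sel1l, chr12:91849158-91849357, minus strand: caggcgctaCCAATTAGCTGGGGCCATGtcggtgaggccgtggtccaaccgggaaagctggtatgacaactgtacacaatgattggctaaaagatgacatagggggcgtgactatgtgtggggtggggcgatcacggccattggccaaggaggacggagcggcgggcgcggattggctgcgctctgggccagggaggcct
Herpud1, chr8:94386229-94386428, plus strand: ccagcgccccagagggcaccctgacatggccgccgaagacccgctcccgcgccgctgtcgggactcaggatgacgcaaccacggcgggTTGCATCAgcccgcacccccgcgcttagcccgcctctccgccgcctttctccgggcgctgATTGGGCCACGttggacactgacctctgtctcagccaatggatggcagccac
Derl3, chr10:75893198-75893397, plus strand: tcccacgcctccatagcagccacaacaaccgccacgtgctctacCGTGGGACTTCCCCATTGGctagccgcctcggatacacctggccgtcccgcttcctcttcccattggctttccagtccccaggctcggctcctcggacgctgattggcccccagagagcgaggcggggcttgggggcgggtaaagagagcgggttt
Ube2j1, chr4:33031180-33031379, plus strand: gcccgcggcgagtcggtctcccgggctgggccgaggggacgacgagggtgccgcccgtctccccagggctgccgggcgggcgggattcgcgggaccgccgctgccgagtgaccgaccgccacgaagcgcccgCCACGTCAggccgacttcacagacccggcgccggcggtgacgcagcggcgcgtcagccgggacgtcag
Vcp, chr4:43000508-43000707, minus strand: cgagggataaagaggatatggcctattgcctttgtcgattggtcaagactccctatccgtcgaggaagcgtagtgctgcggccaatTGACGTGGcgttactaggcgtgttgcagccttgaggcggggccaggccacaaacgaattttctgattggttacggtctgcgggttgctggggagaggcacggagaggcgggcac

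An exact ERSE was present in the Syvn1 and Derl3 promoters, 2 of the 8 genes. Of all 27025 genes with a promoter in the table, 0.137% held it in any of their windows. In Syvn1 it lay on the gene's strand at -44 to -26, counted from the start site, and in Derl3 on the opposite strand at -156 to -138. The ERSE-II match lay in Herpud1 at -52 to -42, and 0.0444% of all genes with a promoter hold it. Herpud1 also held the C/EBP-ATF site, at -112 to -105, as did 4.51% of these genes. The UPRE core lay in Ube2j1 at -68 to -61 and in Vcp at -114 to -107, against 0.714% of all genes with a promoter. With 1 mismatch allowed in CCACG, the ERSE was found in 6 of the 8 genes, against 1.14% of all genes with a promoter. The ERSE-II was then found in 2, against 0.870%. Member promoters held 55.7% to 78.7% GC, with a median of 62%, and all promoters had a median of 52.7%. These matches describe letters in the windows and do not show that a factor bound there.

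**Figure D1:**
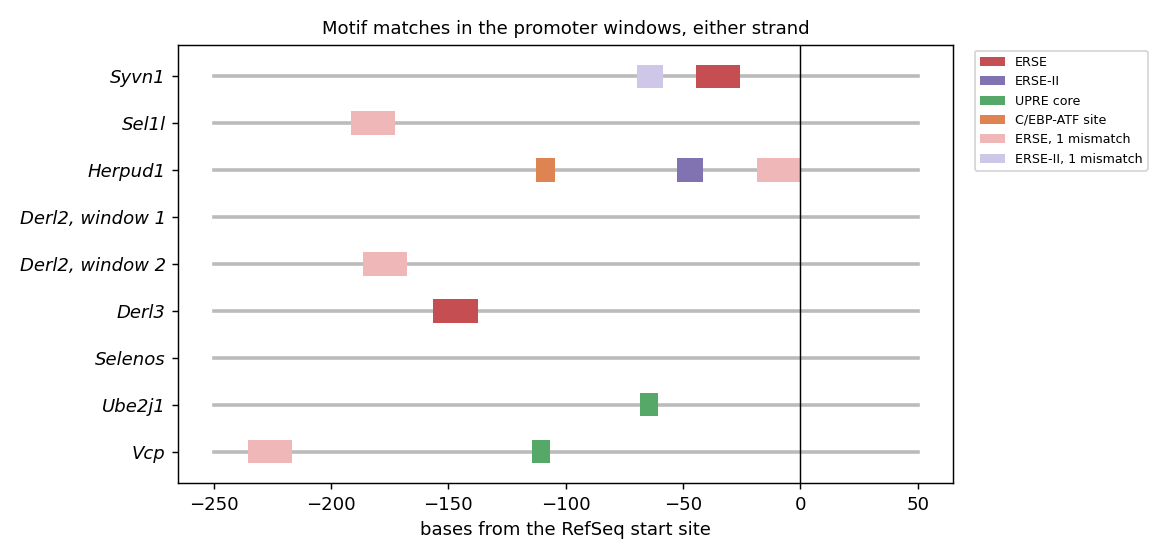
Position of motif matches in the promoter windows of 8 ERAD genes, in bases from the RefSeq start site (x axis), with 1 line per window and coloured bars for matches on either strand. Exact ERSE matches stand in Syvn1 and Derl3, ERSE-II and the C/EBP-ATF site in Herpud1, and the UPRE core in Ube2j1 and Vcp; Derl2 has 2 windows.

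All 9 ERAD genes had a higher mean FPKM with tunicamycin in wild-type hepatocytes, from a ratio of 1.17 for Vcp to 53.1 for Derl3. The ligase adaptor gene Sel1l and the stress-induced Herpud1 rose 13.1-fold and 25.6-fold, and Derl1, Derl2 and Ube2j1 rose 1.72-fold to 2.30-fold. By limma, 9 of 9 genes were called higher in WT Tu than in WT DMSO and 0 lower, where 17.7% of the 11858 genes tested were called higher and 15.9% lower. Without WT Tu replicate 1 the count was also 9. It was 8 under scaling to total fragments, upper-quartile scaling and quantile normalization, and without the filter on low values. The count was also 8 with only these groups fitted and with the replicate number as a block. Leaving out WT DMSO replicate 2 or 3 or WT Tu replicate 2 gave 8 as well. Vcp was the gene that lost its call each time. The median log2 change of the 9 genes was 1.57, against 0.00 for all genes tested. The members were named with earlier results of these data known, so this count describes them and is not a test of the list. Derl3 passed the filter on low values only through the tunicamycin groups, so it had to differ.

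The ligase complex of Syvn1 and Sel1l went up steeply. Syvn1 (chromosome 19, 6046576 to 6053712, plus strand, build mm10, as are all positions of genes here) had 104, 101 and 107 FPKM in the WT Tu libraries, against 15.2, 13.6 and 13.8 FPKM in the WT DMSO libraries. Every WT Tu library lay far above every WT DMSO library, and within each group the values were close together. The log2 change was 2.79 ± 0.07 (SE, limma adjusted p = 5.6e-08), a ratio of mean FPKM of 7.32. Syvn1 overlaps the oppositely transcribed Mrpl49 by 91 bases, and Mrpl49 averaged 19.4 ± 1.46 FPKM in WT Tu, against 23.6 ± 2.01 FPKM in WT DMSO (SD, n = 3 each). Sel1l (chromosome 12, 91806043 to 91849157, minus strand) had 147, 119 and 119 FPKM in WT Tu, against 10.4, 9.29 and 9.62 FPKM in WT DMSO. Its groups did not overlap either, and WT Tu replicate 1 was the highest. Sel1l rose by 3.58 ± 0.09 on the log2 scale (SE, limma adjusted p = 6.2e-08), a ratio of means of 13.1.

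Because Sel1l rose more than Syvn1, their balance in FPKM turned over. The ratio of Sel1l to Syvn1 FPKM was 1.41, 1.19 and 1.11 in WT Tu, against 0.687, 0.685 and 0.696 in WT DMSO. By FPKM, the adaptor transcript was thus the scarcer of the pair in every vehicle library and the more abundant in every tunicamycin library. That crossing depends on scaling to gene length, 8555 bases for Sel1l and 4772 for Syvn1. In unscaled fragments Sel1l exceeded Syvn1 in every WT DMSO library too, at 1421, 1310 and 1299 against 1154, 1066 and 1041. The difference of means of the FPKM ratio was 0.548, with an exact two-sided permutation p = 0.1, the smallest that 3 against 3 allows (adjusted p = 0.13 over 9 such comparisons).

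Herpud1 became the most abundant transcript of the group. Herpud1 (chromosome 8, 94386438 to 94395377, plus strand) had 983, 695 and 682 FPKM in WT Tu, against 35.3, 28.6 and 28.4 FPKM in WT DMSO. WT Tu replicate 1 was well above the other WT Tu libraries, and all WT Tu values were far above all WT DMSO values. The log2 change was 4.62 ± 0.15 (SE, limma adjusted p = 1.9e-07), a ratio of means of 25.6 and rank 3 from the top of all genes tested. Without WT Tu replicate 1 the log2 change was 4.45. Herpud1 made up 49.0% to 56.2% of the summed FPKM of the 9 genes in WT Tu libraries, against 9.37% to 10.8% in WT DMSO libraries. An antisense gene that overlaps Herpud1 by 535 bases, Gm15890, had at most 31 fragments in any library. The paralog Herpud2 rose less, by 0.70 ± 0.08 (SE, limma adjusted p = 0.00033), so Herpud1 held 97.2% ± 0.282 of the pair's FPKM in WT Tu and 69.5% ± 1.52 in WT DMSO (SD, n = 3 each; exact permutation p = 0.1, adjusted p = 0.13).

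The 3 derlins responded very unequally. Derl3 (chromosome 10, 75893413 to 75895941, plus strand) had 40.4, 46.9 and 49.8 FPKM in WT Tu, against 0.881, 1.10 and 0.604 FPKM in WT DMSO, where it was at 28, 36 and 19 fragments. It was close to absent with vehicle and clearly present in every tunicamycin library. Its log2 change of 4.65 ± 0.13 (SE, limma adjusted p = 1.2e-07) was the second largest of all genes tested, and the ratio of mean FPKM was 53.1, more than the log2(FPKM + 1) scale shows for so low a baseline. Derl3 passed the filter on low values only through the tunicamycin groups, so it had to differ. Its p-value and rank are descriptions. Derl1 (chromosome 15, 57869502 to 57892448, minus strand) had 114, 113 and 117 FPKM in WT Tu, against 51.5, 49.3 and 48.6 FPKM in WT DMSO. Its groups did not overlap, and it rose by 1.19 ± 0.05 on the log2 scale (SE, limma adjusted p = 4.0e-07). Derl2 (chromosome 11, 71007164 to 71019841, minus strand) had 20.6, 19.0 and 20.7 FPKM in WT Tu, against 12.3, 11.4 and 11.4 FPKM in WT DMSO. It also rose without overlap, by 0.73 ± 0.05 (SE, limma adjusted p = 2.1e-05).

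The make-up of the derlin pool therefore differed. Derl3 held 23.1%, 26.2% and 26.6% of summed derlin FPKM in WT Tu, against 1.36%, 1.78% and 0.996% in WT DMSO (exact permutation p = 0.1, adjusted p = 0.13). Derl1 remained the largest share in every library, at 62.4% to 65.2% in WT Tu and 79.6% to 80.1% in WT DMSO. All derlin shares given here depend on scaling to gene length, 3328 bases for Derl1, 8049 for Derl2 and 1993 for Derl3. In unscaled fragments Derl3 stayed below Derl2 in every WT Tu library, at 1145, 1471 and 1466 against 2359, 2413 and 2456. Derl2 overlaps the oppositely transcribed gene Mis12 by 231 bases, and the strand setting of the counting is not given in the sources used here. Mis12 had 24.7 ± 3.42 FPKM in WT Tu and 12.8 ± 1.61 FPKM in WT DMSO (SD, n = 3 each), and its part in the Derl2 value was not tested.

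The partners that attach ubiquitin and dock the ATPase rose less than the ligase complex. Selenos (chromosome 7, 66079649 to 66089405, plus strand), which encodes the VCP receptor selenoprotein S, had 125, 114 and 102 FPKM in WT Tu, against 39.9, 35.0 and 37.8 FPKM in WT DMSO. The WT Tu values spread widely but lay above every WT DMSO value, and the log2 change was 1.57 ± 0.08 (SE, limma adjusted p = 2.5e-06). Ube2j1 (chromosome 4, 33031416 to 33052363, plus strand), which encodes the E2 enzyme, had 66.7, 64.3 and 61.8 FPKM in WT Tu, against 37.2, 34.3 and 33.5 FPKM in WT DMSO. It rose without overlap, by 0.86 ± 0.06 on the log2 scale (SE, limma adjusted p = 9.3e-06).

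Vcp, the ATPase that serves many pathways besides ERAD, changed least. Vcp (chromosome 4, 42979963 to 43000507, minus strand) had 148, 145 and 129 FPKM in WT Tu, against 124, 118 and 120 FPKM in WT DMSO. The groups did not overlap but came close, and the log2 change was 0.22 ± 0.06 (SE, limma adjusted p = 0.026). That call was lost under scaling to total fragments (log2 change 0.09, limma adjusted p = 0.29), upper-quartile scaling (adjusted p = 0.087) and quantile normalization (adjusted p = 0.24). It was also lost on leaving out WT DMSO replicate 2, WT DMSO replicate 3 or WT Tu replicate 2 (limma adjusted p = 0.082, 0.076 and 0.075). The X-linked processed pseudogene Vcp-rs can share reads with Vcp, and ranged over 53.0 to 93.3 FPKM in WT Tu, against 40.9 to 62.2 FPKM in WT DMSO, so the Vcp level is uncertain. Vcp also overlaps 1700022I11Rik on the other strand by 3678 bases, a gene at 0.746 to 1.26 FPKM in WT Tu and 0.656 to 0.855 FPKM in WT DMSO.

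**Figure D2:**
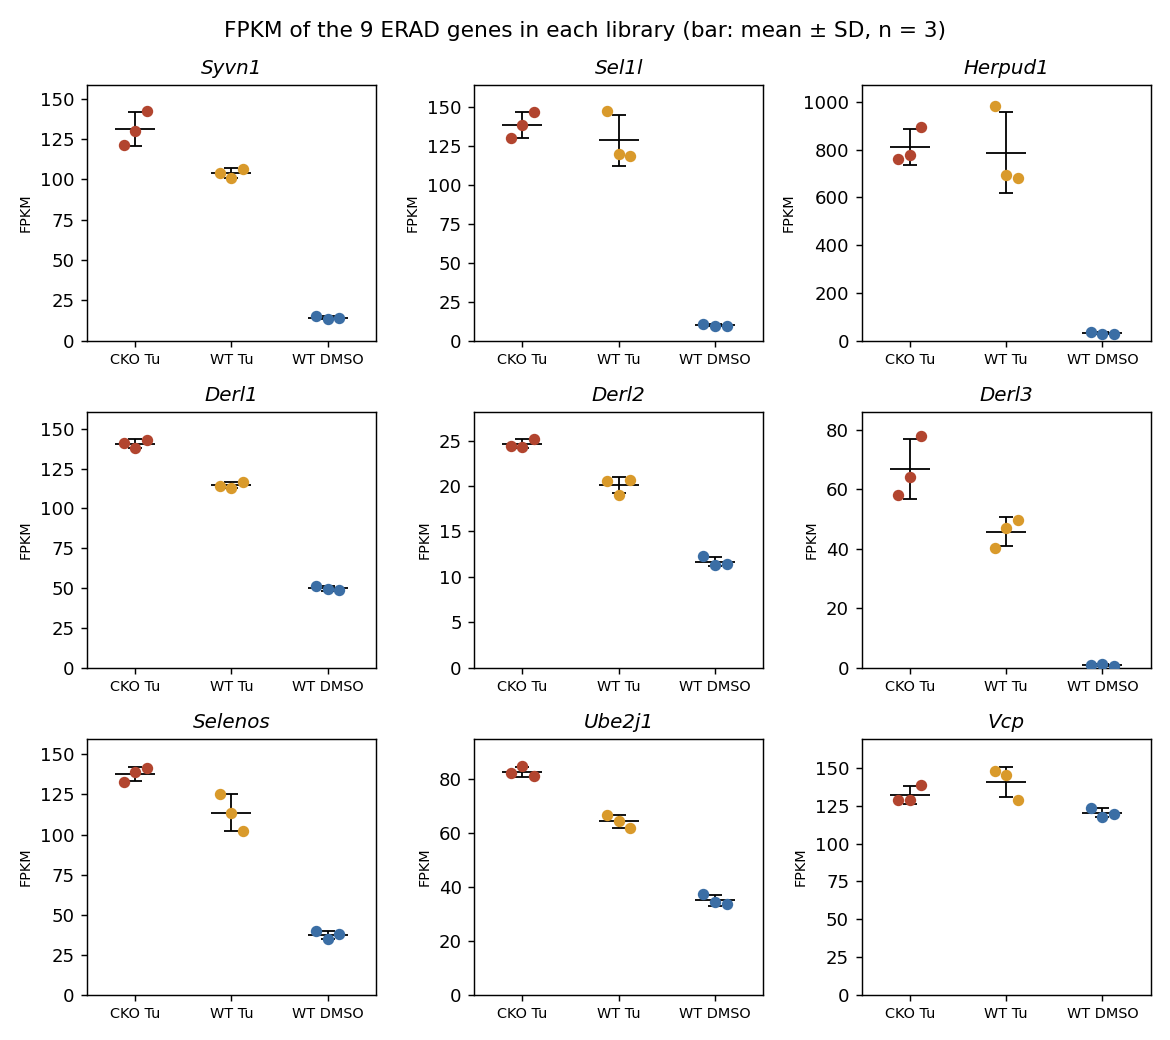
FPKM of each ERAD gene (y axis, linear from 0, own scale per panel) in CKO Tu, WT Tu and WT DMSO, with 1 point per library and bars for the mean ± SD of 3 libraries. Derl3 is near 0 in WT DMSO, and Vcp differs little between groups. WT Tu replicate 1 is the highest WT Tu point for Sel1l, Herpud1, Selenos, Ube2j1 and Vcp.

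The order of transcript levels, which depends on the gene lengths behind FPKM, was rearranged as a result. In WT Tu the order of mean FPKM was Herpud1, Vcp, Sel1l, Derl1, Selenos, Syvn1, Ube2j1, Derl3 and Derl2. Vcp and Sel1l overlapped in their libraries, as did Derl1 with Selenos and Selenos with Syvn1. In WT DMSO the order was Vcp, Derl1, Selenos, Ube2j1, Herpud1, Syvn1, Derl2, Sel1l and Derl3, with overlaps between Selenos and Ube2j1 and between Ube2j1 and Herpud1. Sel1l thus stood next to last with vehicle and at place 3 with tunicamycin. The 9 genes summed to 1388 to 1750 FPKM in WT Tu libraries and 300 to 326 FPKM in WT DMSO libraries.

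Setting CKO Tu against WT Tu asks whether hepatocytes under ER stress differ when COX-2 is deleted. No ERAD gene of the 9 was called lower in the knockout cells. Derl1, Derl2, Derl3, Syvn1, Selenos and Ube2j1 were higher in CKO Tu, by 21.2% to 45.9% of mean FPKM, while Sel1l, Herpud1 and Vcp did not pass the test. By limma, 6 of 9 genes were called higher and 0 lower, where 18.7% of 11858 genes were called higher and 19.6% lower. The count was 7 without WT Tu replicate 1, with Sel1l added. It was 5 on leaving out WT Tu replicate 2 or 3 or CKO Tu replicate 2 or 3, and also with a pseudocount of 0.1 and without the filter on low values. Their median log2 change was 0.28, against 0.00 for all genes tested. These differences stand in libraries that also differ in Xist and in Y-linked transcripts, and the parts of genotype and sex cannot be told apart.

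All 3 derlins were higher. Derl1 had 141, 138 and 143 FPKM in CKO Tu, against 114, 113 and 117 FPKM in WT Tu, a log2 change of 0.29 ± 0.05 (SE, limma adjusted p = 0.0012). Derl2 had 24.4, 24.3 and 25.2 FPKM in CKO Tu, against 20.6, 19.0 and 20.7 FPKM in WT Tu, a log2 change of 0.28 ± 0.05 (SE, limma adjusted p = 0.0041). Neither pair of groups overlapped, and the CKO Tu libraries were tightly grouped. Derl3 had 58.1, 64.1 and 77.8 FPKM in CKO Tu, against 40.4, 46.9 and 49.8 FPKM in WT Tu, a log2 change of 0.53 ± 0.13 (SE, limma adjusted p = 0.013). Its groups did not overlap either, though both were spread more widely. The Derl3 call was lost with a pseudocount of 0.1 (limma adjusted p = 0.051). The Derl3 share of the derlin pool was 26.0%, 28.3% and 31.6% in CKO Tu, against 23.1%, 26.2% and 26.6% in WT Tu, and here the groups overlapped (exact permutation p = 0.3, adjusted p = 0.34).

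Of the ligase complex, Syvn1 had 122, 130 and 142 FPKM in CKO Tu, against 104, 101 and 107 FPKM in WT Tu. The groups did not overlap, and the log2 change was 0.33 ± 0.07 (SE, limma adjusted p = 0.0056). Sel1l had 130, 138 and 146 FPKM in CKO Tu, against 147, 119 and 119 FPKM in WT Tu. Here WT Tu replicate 1 lay above all CKO Tu libraries and the other WT Tu libraries lay below them. The log2 change was 0.11 ± 0.09 (SE, limma adjusted p = 0.38). Leaving out WT Tu replicate 1 gave 0.21, called higher (limma adjusted p = 0.028). The ratio of Sel1l to Syvn1 FPKM was 1.07, 1.06 and 1.03 in CKO Tu, against 1.41, 1.19 and 1.11 in WT Tu, without overlap (exact permutation p = 0.1, adjusted p = 0.13). The difference of -0.185 was -0.0961 without WT Tu replicate 1.

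Herpud1 had 759, 777 and 896 FPKM in CKO Tu, against 983, 695 and 682 FPKM in WT Tu. The groups overlapped through WT Tu replicate 1, and the log2 change was 0.06 ± 0.15 (SE, limma adjusted p = 0.78). Its sign turned under quantile normalization, at -0.21, and without WT Tu replicate 2 or 3 or CKO Tu replicate 3, at -0.02, -0.03 and -0.01. Without WT Tu replicate 1 the log2 change was 0.23 (limma adjusted p = 0.11).

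Selenos had 133, 139 and 142 FPKM in CKO Tu, against 125, 114 and 102 FPKM in WT Tu. The groups lay close but apart, at a log2 change of 0.28 ± 0.08 (SE, limma adjusted p = 0.024). That call was lost without WT Tu replicate 2 or 3, without CKO Tu replicate 2 or 3, and without the filter on low values (limma adjusted p = 0.054, 0.068, 0.07, 0.074 and 0.055). Ube2j1 had 82.0, 84.7 and 81.1 FPKM in CKO Tu, against 66.7, 64.3 and 61.8 FPKM in WT Tu. It was clearly separated, at a log2 change of 0.36 ± 0.06 (SE, limma adjusted p = 0.0013). Vcp had 129, 129 and 139 FPKM in CKO Tu, against 148, 145 and 129 FPKM in WT Tu, at -0.09 ± 0.06 (SE, limma adjusted p = 0.31), which was 0.01 under quantile normalization.

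**Figure D3:**
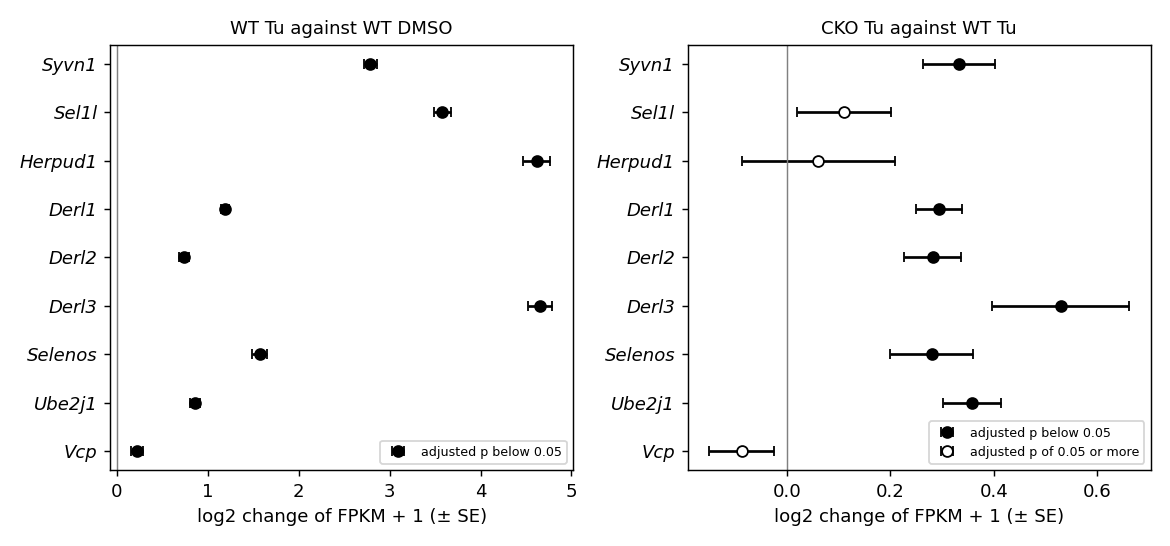
Log2 change of FPKM + 1 with its standard error (x axis, a different scale in each panel) for the 9 ERAD genes, in WT Tu against WT DMSO (left) and CKO Tu against WT Tu (right). Filled points had a limma adjusted p below 0.05; all 9 are filled on the left, and 6 on the right, where the changes stay between -0.09 and 0.53.

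In CKO Tu the order of mean FPKM was Herpud1, Derl1, Sel1l, Selenos, Vcp, Syvn1, Ube2j1, Derl3 and Derl2. From Derl1 to Syvn1 each gene overlapped the next in its libraries, so that 5 genes shared a level between 122 and 146 FPKM. The 9 genes summed to 1578 to 1792 FPKM in CKO Tu libraries, against 1388 to 1750 FPKM in WT Tu libraries. Leaving out Herpud1, the sums were 819 to 896 FPKM in CKO Tu and 706 to 767 FPKM in WT Tu, without overlap.

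**Figure D4:**
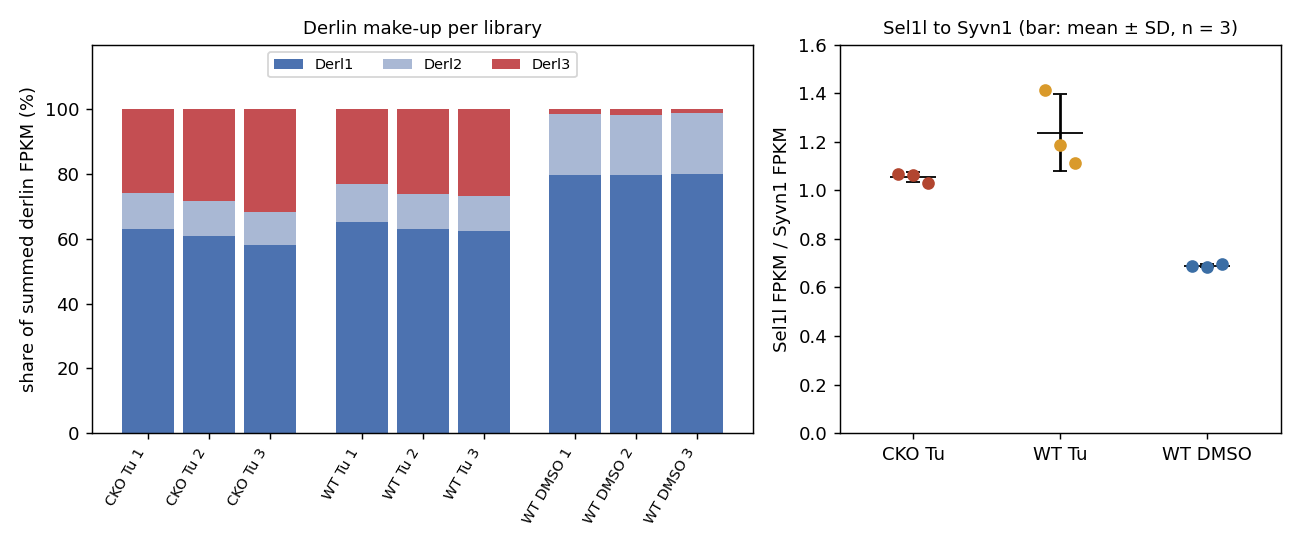
Left, share of summed derlin FPKM held by Derl1, Derl2 and Derl3 in each library (y axis, %); right, ratio of Sel1l to Syvn1 FPKM with 1 point per library and bars for mean ± SD of 3 libraries. Derl3 holds 0.996% to 1.78% in WT DMSO and at least 23.1% in the tunicamycin libraries, and the Sel1l to Syvn1 ratio is below 1 in WT DMSO alone.

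Tunicamycin-treated knockout cells were also set against vehicle-treated wild-type cells, groups that differ in genotype, sex-linked transcripts and treatment together. In CKO Tu against WT DMSO 8 of 9 genes were called higher by limma and 0 lower, where 25.3% of genes were called higher and 24.2% lower. This comparison shares its CKO Tu and WT DMSO libraries with the 2 others, so it adds no independent evidence. Derl3 had 66.7 ± 10.1 FPKM in CKO Tu and 0.860 ± 0.247 FPKM in WT DMSO (SD, n = 3 each), a log2 change of 5.18 ± 0.13 (SE, limma adjusted p = 2.2e-08). It is among the 8, but passed the filter on low values only through the tunicamycin groups, so it had to differ here too. Syvn1 rose by 3.12 ± 0.07, Sel1l by 3.69 ± 0.09 and Herpud1 by 4.68 ± 0.15 on the log2 scale (SE). Vcp had 132 ± 5.83 FPKM in CKO Tu and 120 ± 3.12 FPKM in WT DMSO (SD, n = 3 each; limma adjusted p = 0.11), and was called higher when only these groups were fitted (limma adjusted p = 0.04).

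The rest of the ERAD pathway was represented by 83 other genes in 5 lists, of which 78 passed the filter. In WT Tu against WT DMSO 25 of the 78 (32.1%) were called higher and 8 (10.3%) lower by limma. Over all genes tested 17.7% were called higher and 15.9% lower. The median log2 change of the 78 was 0.11. Without WT Tu replicate 1 the counts were 26 and 9, and with scaling to total fragments 19 and 18. Of 6 lectins and mannosidases that read the sugar trees of misfolded glycoproteins, 4 (66.7%) rose and 0 fell. Edem1, Edem3 and Edem2, whose products trim mannose from such proteins, rose by 2.42 ± 0.09, 1.30 ± 0.09 and 0.86 ± 0.06 on the log2 scale (SE, limma adjusted p = 3.4e-07, 1.1e-05 and 1.6e-05). Of 31 tested ubiquitin ligases and partners, 12 (38.7%) rose and 2 (6.45%) fell. The BiP cochaperones Dnajb9 and Dnajb11 and the derlin-binding selenoprotein gene Selenok rose by 2.43 ± 0.10, 2.35 ± 0.08 and 2.04 ± 0.11 (SE, limma adjusted p = 6.2e-07, 2.9e-07 and 3.0e-06).

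Of 7 ubiquitin-conjugating enzymes 1 (14.3%) rose and 0 fell, where 17.7% of all genes rose. That gene, Ube2g2, rose by 0.94 ± 0.05 (SE, limma adjusted p = 4.1e-06), to 122 ± 5.28 FPKM in WT Tu, against 63.3 ± 2.71 FPKM in WT DMSO (SD, n = 3 each). Of 17 tested VCP cofactors 5 (29.4%) rose and 2 (11.8%) fell, with changes between -0.48 and 0.42. Faf1 and Ube4a rose by 0.42 ± 0.07 and 0.34 ± 0.11, and Aspscr1 changed by -0.32 ± 0.11 (SE, limma adjusted p = 0.0023, 0.042 and 0.049). The Ube4a call was lost under 11 of the 19 alternatives and the Aspscr1 call under 13, and without WT Tu replicate 1 the log2 changes were 0.20 and -0.20. Of 17 tested genes for deglycosylation, shuttling and deubiquitination 3 (17.6%) rose and 4 (23.5%) fell, shares near the 17.7% and 15.9% of all genes. Ubl4a, a subunit of the BAG6 complex, changed by -0.46 ± 0.06 (SE, limma adjusted p = 0.00048). Engase, a cytosolic deglycosylase, had 1.18 ± 0.140 FPKM in WT Tu and 0.626 ± 0.157 FPKM in WT DMSO (SD, n = 3 each), so it passed the filter on low values only through the tunicamycin groups. Its log2 change was 0.42 ± 0.13 (SE, limma adjusted p = 0.037), a call lost under 8 of 18 alternatives, and the change was 0.83 with a pseudocount of 0.1 and 0.94 with voom on fragments.

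In CKO Tu against WT Tu the other ERAD genes went both ways, with 17 of 78 (21.8%) called higher and 15 (19.2%) lower by limma and a median log2 change of 0.00. These shares lie near the 18.7% and 19.6% over all genes, and without WT Tu replicate 1 the counts were 19 and 19. Edem3 and Edem2 were higher, by 0.43 ± 0.09 and 0.21 ± 0.06 (SE, limma adjusted p = 0.0051 and 0.023), the Edem2 call being lost without any 1 of the CKO Tu libraries (adjusted p = 0.052 to 0.076). The ER ligase genes Rnf103 and Rnf139 were higher, by 0.71 ± 0.06 and 0.42 ± 0.11, while Dnajb9 was lower, at 318 ± 8.78 FPKM in CKO Tu and 443 ± 73.7 FPKM in WT Tu (SD, n = 3 each; limma adjusted p = 0.0065). Of 7 conjugating enzymes 0 rose and 3 (42.9%) fell, namely Ube2n, Ube2d3 and Ube2g2, with log2 changes of -0.42 ± 0.13, -0.35 ± 0.06 and -0.22 ± 0.05 (SE, limma adjusted p = 0.032, 0.0025 and 0.011). The Ube2n call was lost under 5 of 19 alternatives, among them no filter on low values and only these groups fitted (limma adjusted p = 0.082 and 0.067), and its log2 change was -0.25 without WT Tu replicate 1. The Ube2g2 call was lost with scaling to total fragments (limma adjusted p = 0.067). Of the VCP cofactors Vcpkmt and Ubxn4 changed by -0.64 ± 0.14 and -0.27 ± 0.05, and Ubxn1 by 0.25 ± 0.07 (SE, limma adjusted p = 0.0071, 0.0035 and 0.019), the Ubxn1 call being lost without WT Tu replicate 2 or CKO Tu replicate 1 or 3 (adjusted p = 0.060 to 0.065). The ER-anchored deubiquitinase gene Usp19 and Ubl4a were higher, by 0.57 ± 0.05 and 0.45 ± 0.06, and Usp14, which encodes a proteasome-bound deubiquitinase, changed by -0.43 ± 0.07 (SE, limma adjusted p = 5.3e-05, 0.00051 and 0.0024).

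In CKO Tu against WT DMSO 33 of the 78 other ERAD genes (42.3%) were called higher and 16 (20.5%) lower by limma, where 25.3% of all genes were called higher and 24.2% lower. Of the lectins and mannosidases 5 (83.3%) rose and 0 fell, and Edem1, Edem3 and Edem2 rose by 2.43 ± 0.09, 1.73 ± 0.09 and 1.07 ± 0.06 on the log2 scale (SE, limma adjusted p = 1.7e-07, 9.4e-07 and 1.9e-06). Of the ligases and partners 17 (54.8%) rose and 7 (22.6%) fell, with Dnajb11 at 2.75 ± 0.08, Selenok at 2.34 ± 0.11 and Dnajb9 at 1.97 ± 0.10 (SE, limma adjusted p = 5.0e-08, 5.7e-07 and 9.8e-07). Of the 7 conjugating enzymes 3 (42.9%) rose and 2 (28.6%) fell. Ube2g2 rose by 0.72 ± 0.05 and Ube2n fell by 0.45 ± 0.13 (SE, limma adjusted p = 8.3e-06 and 0.019), the Ube2n call being lost under 3 of 19 alternatives. Ube2j2, the ER-anchored relative of Ube2j1, was at 0.29 ± 0.10 (SE, limma adjusted p = 0.044), a call lost under 11 of 19 alternatives. Of the VCP cofactors 3 (17.6%) rose and 3 (17.6%) fell, shares below those of all genes. Among them were Aspscr1 at -0.55 ± 0.11, Vcpkmt at -0.53 ± 0.14 and Vcpip1 at 0.39 ± 0.07 (SE, limma adjusted p = 0.0027, 0.013 and 0.0016). In the list for deglycosylation, shuttling and deubiquitination 5 (29.4%) rose and 4 (23.5%) fell, shares near those of all genes, with Usp14 at -0.75 ± 0.07 and Usp19 at 0.59 ± 0.05 (SE, limma adjusted p = 5.3e-05 and 1.5e-05).

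**Figure D5:**
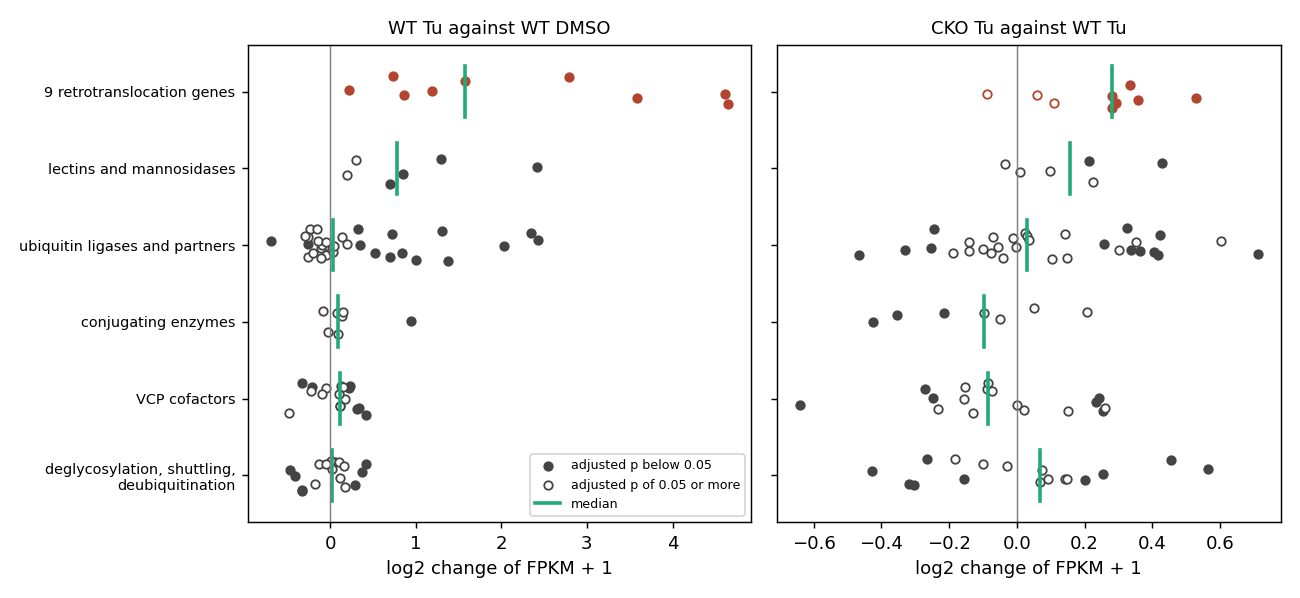
Log2 change of FPKM + 1 (x axis, a different scale in each panel) for the 9 retrotranslocation genes and 5 lists of other ERAD genes, with 1 point per gene, filled where the limma adjusted p was below 0.05, and a bar at the median. In WT Tu against WT DMSO (left) the medians are 1.57 for the 9 genes, 0.78 for lectins and mannosidases and at most 0.12 for the other lists; in CKO Tu against WT Tu (right) all medians lie between -0.10 and 0.28.

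Across the 9 libraries, the genes whose pattern was most like the mean standardised level of the 9 ERAD genes were Ero1lb, Ccdc134, Pdia5, Golga4, Kyat3 and Kdelr2, with Pearson correlations of 0.997 to 0.998. The libraries fall into 3 groups and share their scaling, so this is a description. Ero1lb had 25.7 ± 1.99 FPKM in CKO Tu, 20.6 ± 3.04 FPKM in WT Tu and 2.43 ± 0.233 FPKM in WT DMSO (SD, n = 3 each). Among the 9 genes themselves, Vcp was least like the mean, at 0.78, and the others lay between 0.977 and 0.998. That mean includes the gene set against it, which raises these values, so they too are a description.

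How the libraries were scaled moved the calls over all genes in WT Tu against WT DMSO. The deposited scaling gave 2099 genes higher and 1882 lower, scaling to total fragments 1430 and 3108, and upper-quartile scaling 1739 and 2375. Scaling to total fragments put the median log2 change of all genes at -0.11, and the 9 ERAD genes then lay between 0.09 (Vcp) and 4.57 (Derl3).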

How the data were processed

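RNA was sequenced from 9 libraries of primary mouse hepatocytes. The authors deposited FPKM per gene, and the tools named in the submitters' processing notes are HISAT2 2.2.1 and featureCounts 1.5.0-p3, with build mm10. Annotation release and strand setting are not given in the sources used here. Multiplied by gene length, the deposited FPKM of each library fell on whole multiples of a single step (tolerance 0.001 fragments, 100% of values), which gave the fragment numbers. The library sizes behind the FPKM were 0.948 to 1.07 times the recovered totals. This factor went by group, at 1.06 to 1.07 in WT DMSO, 0.948 to 0.984 in WT Tu and 1.00 to 1.01 in CKO Tu. The deposited FPKM are therefore higher in WT Tu relative to WT DMSO than under scaling to total fragments.

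A gene entered the test when 3 or more libraries reached an FPKM of 1 (11858 genes), on log2(FPKM + 1) with limma 3.58.1 in R 4.3.3. The fit held all 9 libraries, 1 mean per group and an intensity trend. P-values are two-sided and adjusted by the Benjamini-Hochberg method over all genes tested in each comparison, at a threshold of 0.05. The pseudocount makes fold changes of low genes smaller. Ratios of genes were compared with exact permutation tests in scipy 1.17.1. The limma fit was run on simulated fragments, with the same set spread for every gene, and its recovery of changed genes is not reported here.

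The members, the other ERAD lists, the motifs and the tests were chosen with earlier results of these data known. Named genes are all members, and from each of the 5 lists up to 3 called genes with the largest change per comparison, of which 1 gene is not reported here. The 6 genes most like the members needed a mean FPKM of at least 5 over all libraries. Genes that overlap a member on the other strand, and the pseudogene Vcp-rs, are given beside it for WT Tu against WT DMSO. The microRNA gene Mir6988 overlaps Syvn1 by 59 bases on the same strand and had 0 fragments in every library. The symbols of 2 listed genes were matched by their older or altered names in the table.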

Additional observations from a re-analysis of the deposited data

How the results depend on the processing

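Each member's log2 change was recomputed under 10 other settings and with each library left out in turn. Of these values 491 kept their direction and their side of the threshold, 15 kept the direction and lost the call, 2 gained it and 5 turned sign. The turned values were Herpud1 (4 values) and Vcp (1 value) in CKO Tu against WT Tu, neither of them called. Under quantile normalization they were -0.21 and 0.011. For Vcp in WT Tu against WT DMSO the log2 change was 0.22 without the filter, with only the 2 groups compared and with the replicate number as a block (limma adjusted p = 0.057, 0.059 and 0.053), 0.17 when scaled by the upper quartile, 0.11 after quantile normalization, 0.0902 when scaled to total fragments, and 0.19 to 0.28 with a library left out. In CKO Tu against WT Tu, Derl3 was 0.54 with a pseudocount of 0.1 and Selenos 0.28 without the filter, both no longer called, and with a library left out the ranges were 0.21 to 0.35 for Selenos, 0.0557 to 0.21 for Sel1l and -0.0319 to 0.23 for Herpud1. Vcp in CKO Tu against WT DMSO was 0.13 and called with only those groups fitted. The causes were not tested.

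Of the other ERAD genes, the number called lower in WT Tu against WT DMSO was 5 without the filter and with only the 2 groups, 18 with scaling to total fragments, and 5 to 9 with a library left out (5 without WT DMSO replicate 1 and 5 without WT Tu replicate 3). In CKO Tu against WT Tu, leaving out a library gave 11 to 19 higher, with 11 without CKO Tu replicate 3, and 9 to 19 lower, with 9 without CKO Tu replicate 2. All genes called lower in WT Tu against WT DMSO came to 3108 with scaling to total fragments. Allowing 1 mismatch in CCACG put the ERSE in 6 and the ERSE-II in 2 member promoters. Deviations from group means correlated at -0.0966 to 0.0208 between same-numbered libraries, so no shared effect of replicate number was seen. These correlations cannot tell whether same-numbered libraries came from the same animal or preparation. The block on replicate number changed the members called higher to 8 in WT Tu against WT DMSO. It left them at 6 in CKO Tu against WT Tu and 8 in CKO Tu against WT DMSO. The 28, 36 and 19 fragments of Derl3 in WT DMSO limit the precision of its ratio.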
